A study of Mus musculus with 2 samples.

Results

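The 40 genes described here act in G2 and mitosis, the phases in which a cell that has copied its DNA prepares to divide, separates its chromosomes and pinches in 2. They were picked by symbol from a list of names, with no threshold on a measured value. The list was chosen with earlier results of these data known. All 40 were found among the 25509 genes of the count table. Both libraries came from mouse soft-tissue sarcoma cells of the C57BL/6 strain, labelled p53-/-Ccne1+, for a knockout of p53 and overexpression of cyclin E1. The cells derived from mesenchymal stem cells that had formed subcutaneous tumors, had been seeded in the lungs of further mice and had been taken back from sarcoma foci there. They were then transduced with a lentiviral hairpin against the backsplice junction of the circular RNA circCsnk1g3 (shcircCsnk1g3) or with a control hairpin (shCTR). One library of polyadenylated RNA represents each condition, so the comparison asks how the 40 transcripts differed between 1 silenced and 1 control culture. No replicate spread exists, and no p-value can be given. How many mice or foci the cells came from was not given in the sources used here.

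Entry into mitosis is driven by the kinase CDK1 with cyclins A and B, which the CDC25 phosphatases switch on. Kinases such as PLK1 and the Aurora kinases then build the spindle, the spindle checkpoint holds the cell until every kinetochore is attached, and the anaphase-promoting complex with CDC20 ends mitosis by destroying cyclin B and securin. Most of these genes are transcribed late in the cycle. Their promoters often carry a CHR element (cell cycle genes homology region), to which the DREAM repressor and the MuvB complex with B-MYB or FOXM1 bind, and CCAAT boxes, to which NF-Y binds.

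Because many of the genes share these elements, their promoter sequences are described first. RefSeq windows on GRCm38.p6, from 250 bases before to 50 after an annotated start site, were matched by symbol to 33 of the 40 genes. Aurkb, Ccna2, Cdc25c, Incenp, Kif20a, Pbk and Tpx2 had no window. Each window was searched for the CHR letters TTTGAA and TTCGAA and for CCAAT on both strands, where TTCGAA reads alike on either strand. A CHR match was present in 25 of 33 windows (75.8%), against 13.4% of the windows of 9582 tested genes. CCAAT was present in 24 of 33 (72.7%), against 39.1%, and 22 of 33 (66.7%) held both, against 5.82%. Among 40 DNA replication genes with a window, 12.5% held a CHR match and 62.5% a CCAAT match. No CHR match overlapped a CCAAT match in these 33 windows.

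Windows of 12 genes are shown, cut to the 110 bases before the start site and 24 after it. They were chosen with the transcript values known, from genes lower in shcircCsnk1g3 (Cenpa, Ube2c, Cdc20, Espl1, Knstrn, Ccnb2, Birc5, Cdk1), the member with the most counts (Top2a) and genes near or above equality (Racgap1, Kif4, Cdc25b). Knstrn and Birc5 show windows with neither element, and in all 11 of the 33 windows did not hold both. Each is written 5′ to 3′ on the strand of its gene, with CHR and CCAAT matches of either strand in capitals. A match on the other strand therefore reads TTCAAA or ATTGG.
Cenpa (chr5:30666776-30666910, plus strand): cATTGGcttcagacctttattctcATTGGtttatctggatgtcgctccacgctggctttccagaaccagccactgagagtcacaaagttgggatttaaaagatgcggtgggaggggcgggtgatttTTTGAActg
Ube2c (chr2:164769819-164769953, plus strand): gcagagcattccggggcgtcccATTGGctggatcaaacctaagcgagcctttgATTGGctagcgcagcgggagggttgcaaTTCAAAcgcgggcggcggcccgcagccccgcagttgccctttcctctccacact
Cdc20 (chr4:118437319-118437453, minus strand): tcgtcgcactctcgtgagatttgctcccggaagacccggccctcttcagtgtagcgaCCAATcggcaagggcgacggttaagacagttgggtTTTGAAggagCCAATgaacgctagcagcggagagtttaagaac
Espl1 (chr15:102296183-102296317, plus strand): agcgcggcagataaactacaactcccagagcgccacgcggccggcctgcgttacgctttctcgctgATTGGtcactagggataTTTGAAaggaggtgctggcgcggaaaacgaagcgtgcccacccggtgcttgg
Knstrn (chr2:118813893-118814027, plus strand): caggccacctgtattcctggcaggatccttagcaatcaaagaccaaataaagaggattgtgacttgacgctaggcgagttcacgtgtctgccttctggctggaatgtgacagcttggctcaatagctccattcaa
Ccnb2 (chr9:70421530-70421664, minus strand): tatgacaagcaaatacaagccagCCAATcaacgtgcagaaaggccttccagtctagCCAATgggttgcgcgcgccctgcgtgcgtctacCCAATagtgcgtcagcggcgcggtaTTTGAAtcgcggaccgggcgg
Birc5 (chr11:117849127-117849261, plus strand): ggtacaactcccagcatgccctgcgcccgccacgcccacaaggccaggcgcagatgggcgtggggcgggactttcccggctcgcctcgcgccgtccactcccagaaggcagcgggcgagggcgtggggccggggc
Cdk1 (chr10:69352888-69353022, minus strand): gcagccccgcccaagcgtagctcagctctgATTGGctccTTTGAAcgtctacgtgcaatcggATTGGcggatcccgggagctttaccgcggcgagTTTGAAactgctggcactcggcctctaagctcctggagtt
Top2a (chr11:99024165-99024299, minus strand): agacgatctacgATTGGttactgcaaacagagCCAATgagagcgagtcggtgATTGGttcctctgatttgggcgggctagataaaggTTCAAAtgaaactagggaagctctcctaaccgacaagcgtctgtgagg
Racgap1 (chr15:99651632-99651766, minus strand): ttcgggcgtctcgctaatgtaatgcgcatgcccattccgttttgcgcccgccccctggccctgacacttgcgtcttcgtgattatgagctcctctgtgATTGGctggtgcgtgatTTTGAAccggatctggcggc
Kif4 (chrX:100625955-100626089, plus strand): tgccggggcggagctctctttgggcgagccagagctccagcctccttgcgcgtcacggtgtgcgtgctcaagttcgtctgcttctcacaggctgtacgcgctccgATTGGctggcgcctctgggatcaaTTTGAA
Cdc25b (chr2:131186838-131186972, plus strand): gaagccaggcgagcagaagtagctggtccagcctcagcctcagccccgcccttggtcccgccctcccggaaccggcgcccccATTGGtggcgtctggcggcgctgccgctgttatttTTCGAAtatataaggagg

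The 2 kinds of match lay at different distances from the start. Of 34 CHR matches, 24 began within 50 bases of the start site on either side, in 23 genes. Of 54 CCAAT matches, 36 began in the 100 bases before it, in 22 genes. Neighbouring CCAAT matches were 25 to 45 bases apart in 18 of 30 cases, as in Ccnb2. In Cdk1 and Ccnb2, the CHR match nearest the start began 15 bases before it and 4 bases after it. The windows of Birc5, Knstrn, Mad2l1, Nuf2, Nusap1 and Pttg1 held neither, which says only that these letters were not in the window. Window start sites lay within 328 bases of the start of the annotated transcript used here, except for Kif2c.

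**Figure D1:**
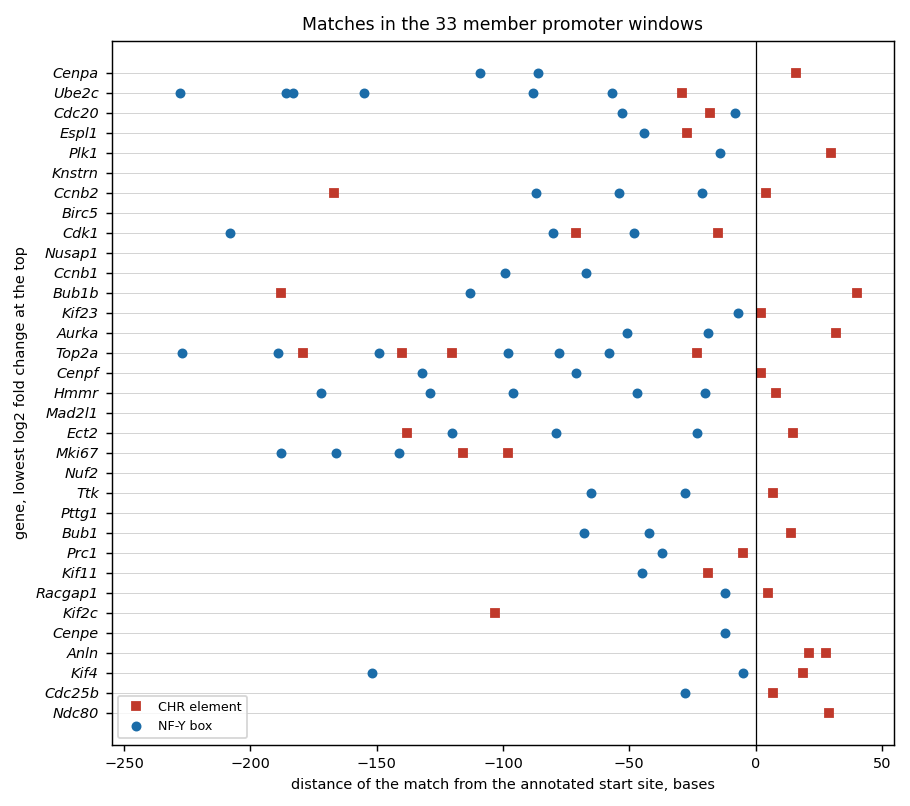
Position of each CHR element (red squares) and NF-Y box, the CCAAT match (blue circles), in the windows of 33 G2 and mitosis genes, as the distance in bases of the first base from the start site at 0 (horizontal axis), with the lowest log2 fold change at the top (vertical axis). CHR matches gather within 50 bases of the start and CCAAT matches before it.

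Between the libraries, most of the 40 transcripts were slightly lower in shcircCsnk1g3 than in shCTR, and 1 was much lower. The 40 genes together had 281709 counts in shcircCsnk1g3 and 330427 in shCTR. Scaled for depth by the trimmed mean of M-values (TMM), this was 7184 and 7821 per 1000000 counts (CPM), or 8.15% less. The median log2 fold change, shcircCsnk1g3 over shCTR, was -0.11 over the 40 genes and 0.0023 over all 12941 genes tested. The 40 values ran from -1.19 for Pbk to 0.21 for Ndc80. Without Pbk the median stayed at -0.11 over 39 genes and the summed level was 7.51% lower. In bulk RNA, fewer cells in G2 and mitosis and less RNA per such cell cannot be told apart.

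Of the 40, 34 had a log2 fold change below 0, against 49.6% of all genes tested. To say whether a gene's 2 counts differed by more than counting error, a 95% exact Clopper-Pearson interval of their scaled ratio was computed. It compares 2 libraries, not 2 conditions, and says nothing of the spread between cultures. The interval lay below 0 for 29 of 40 genes and above 0 for 3, against 28.2% and 26.9% of all genes tested. All 40 passed the filter of at least 10 counts in 1 library, and the least abundant, Pttg1, had 1563 counts over both libraries. Among the 7687 genes with at least that many counts, 51.5% had a value below 0, 34.4% an interval below 0 and 31.3% an interval above 0. Against these 7687 genes, 34 of the 40 lay below the 50th percentile of log2 fold changes, 17 below the 25th and 7 below the 10th.

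The sizes were small. At least 1.5-fold lower was 1 of 40 (Pbk), against 6.31% of all genes tested, and no member was at least 1.5-fold higher, against 5.39%. Past 2-fold, the numbers were 1 lower (Pbk) against 2.55%, and 0 higher against 2.13%. Among the 7687 genes of like abundance, 1.7% were at least 1.5-fold lower and 0.39% at least 2-fold lower. At a threshold of 1.2-fold, 7 of 40 members were lower and 0 higher, against 16.4% and 15.7% of all genes tested and 9.93% and 7.69% of the 7687 genes of like abundance. The count of members lower at 1.2-fold was thus near the share over all genes. The intervals had a median half-width of 0.054 on the log2 scale, so counting error was small beside many of the differences.

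**Figure D2:**
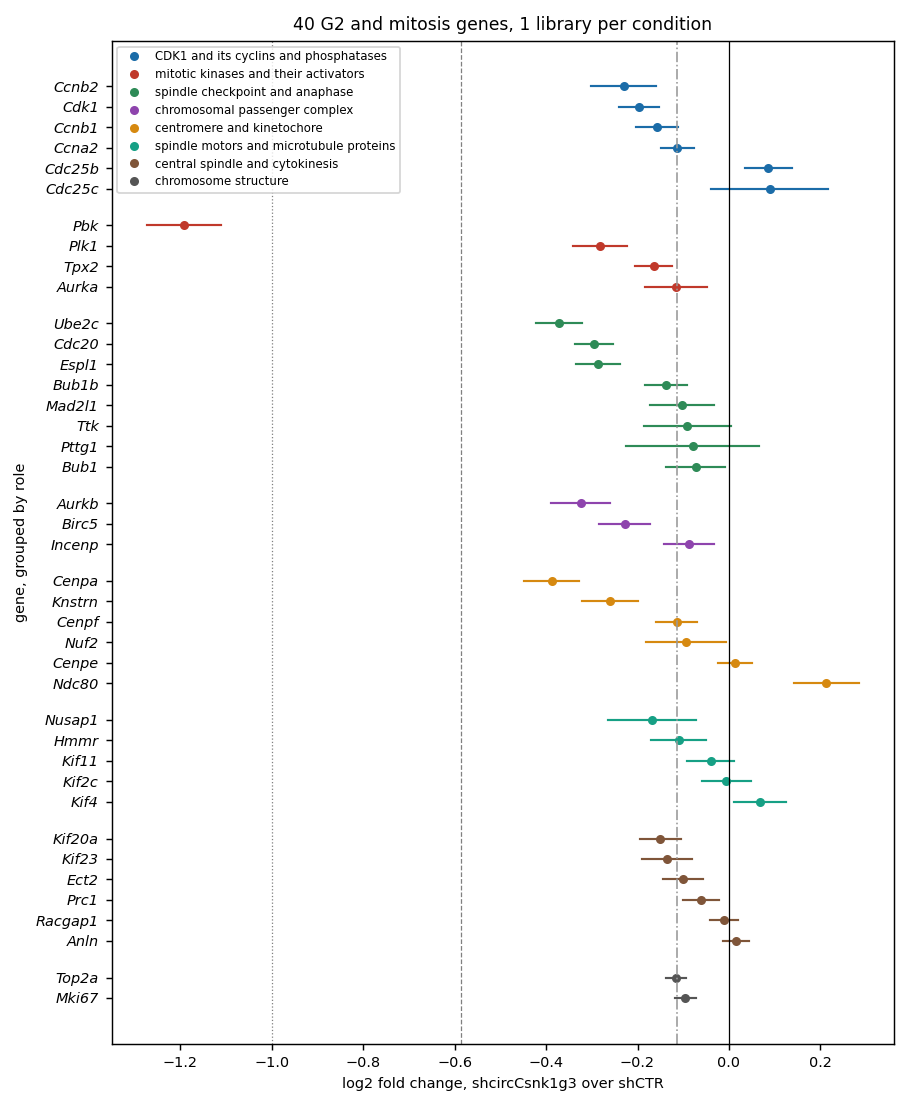
Log2 fold change (horizontal axis, shcircCsnk1g3 over shCTR, 1 library each) of the 40 genes, in rows grouped and coloured by role (vertical axis). Points are fold changes, bars 95% exact intervals for counting error, the dash-dotted line the median of -0.11, and the dashed and dotted lines 1.5-fold and 2-fold lower. Most points lie between -0.4 and 0, Pbk lies alone at -1.19, and Ndc80 is highest at 0.21.

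**Figure D3:**
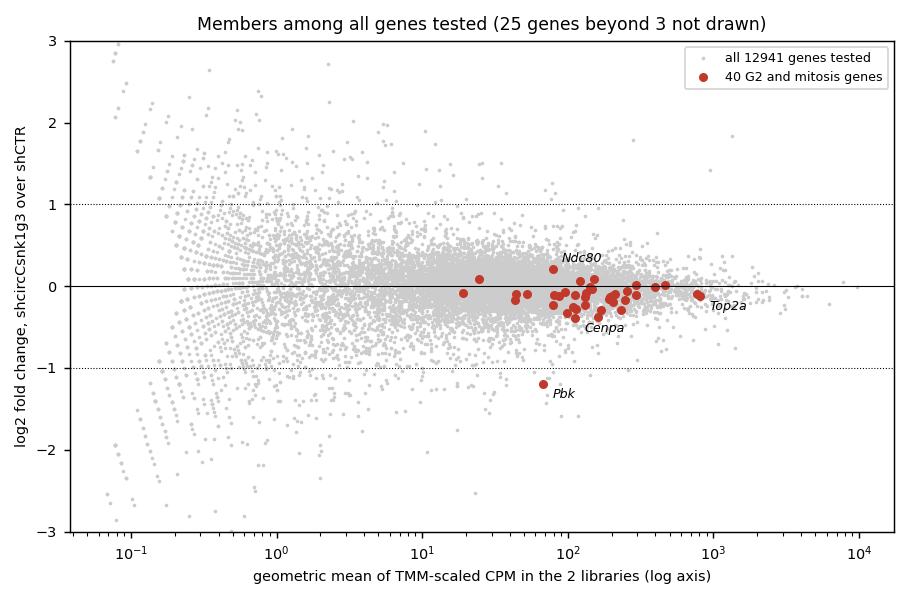
Log2 fold change (vertical axis) against the geometric mean of TMM-scaled CPM in both libraries (horizontal axis, log scale) for all 12941 genes tested (grey) and the 40 G2 and mitosis genes (red). The 40 genes sit among abundant transcripts, mostly just below 0, and Pbk is the 1 member beyond the dotted line at -1.

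The CDK1 group split by function. Cdk1, the kinase itself, had 7527 counts in shcircCsnk1g3 and 9297 in shCTR, which is 192 and 220 CPM and a log2 fold change of -0.20 (interval -0.24 to -0.15). Ccnb2, a B-type cyclin, had 2850 and 3602 counts (-0.23, interval -0.30 to -0.16). Ccnb1, the main partner of CDK1 at mitotic entry, had 7142 and 8581 counts (-0.16). Ccna2, the cyclin A that acts in S phase and G2, was lower as well, with 11123 and 12958 counts (-0.11). The phosphatases that activate CDK1 were on the other side of 0. Cdc25b had 6112 and 6203 counts, which is 156 and 147 CPM and a log2 fold change of 0.086 (interval 0.035 to 0.14). Cdc25c had 996 and 1009 counts (0.089), with an interval from -0.039 to 0.22 that spanned 0. The kinase and its 3 cyclins thus had intervals below 0, and neither phosphatase did. Reads of Ccnb1 may be shared with 3 processed pseudogenes at least 95% identical over 51.7% to 52% of its transcript, none of which has a row in the table.

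The mitotic kinases and their activators were lower in 4 of 4 genes, against 51.5% of the 7687 genes of like abundance. The median of the 4 was -0.22. Pbk, a MAPKK-like kinase active in mitosis (also known as TOPK), had 1760 counts in shcircCsnk1g3 and 4331 in shCTR. This is 44.9 and 102.5 CPM, or 2.28-fold lower, with a log2 fold change of -1.19 (interval -1.27 to -1.11). It was the 19th lowest of the 7687 genes of like abundance. Pbk made up 1.31% of the counts of the 40 genes in shCTR (exact binomial interval 1.27% to 1.35%) and 0.625% in shcircCsnk1g3 (0.596% to 0.655%). A processed pseudogene, Gm12387, is 95.4% identical to 55.5% of the Pbk transcript and has no row in the table, so reads could have been divided between the pair.

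The Pbk gene occupies chromosome 14 from 65805837 to 65817822 on GRCm38 (plus strand), and its neighbours were examined after its value was seen. Esco2, a cohesin acetyltransferase whose start is 28.2 kb away, had 1236 and 1312 counts (0.021, interval -0.092 to 0.13). Ccdc25, 31.5 kb away, had 1141 and 1364 counts (-0.15). On the other side Scara5, 139.4 kb away, had only 28 and 65 counts (-1.06, interval -1.80 to -0.45), and Elp3, 212.8 kb away, had 3921 and 4249 (-0.0084). None of the abundant neighbours named here had a difference of the size of Pbk.

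The other 3 genes of this group differed less. Plk1, the polo kinase needed from mitotic entry to cytokinesis, had 4076 and 5338 counts, which is 103.9 and 126.3 CPM (-0.28, interval -0.34 to -0.22). Tpx2, which activates Aurora A on spindle microtubules, had 9156 and 11058 counts (-0.16). Aurka, which encodes Aurora A, had 3276 and 3826 (-0.12). All 3 intervals lay below 0.

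The genes of the spindle checkpoint and anaphase were below 0 in 8 of 8, against 51.5% of the 7687 genes of like abundance. In 6 of the 8 the interval lay below 0, against 34.4%, and the median was -0.12. The lowest values were in the machinery that ends mitosis. Ube2c, the ubiquitin-conjugating enzyme of the anaphase-promoting complex, had 5542 and 7723 counts, which is 141 and 183 CPM (-0.37, interval -0.42 to -0.32). Cdc20, the activator of that complex, had 8163 and 10788 counts (-0.29, interval -0.34 to -0.25). Espl1, which encodes separase, the protease that cleaves cohesin, had 6008 and 7895 (-0.29). Pttg1, which encodes securin, the inhibitor of separase, had 731 and 832 counts (-0.079), and its interval from -0.22 to 0.066 spanned 0. Cdc20 overlaps Elovl1 on the opposite strand, and Elovl1 itself had 3368 and 4313 counts. The strand setting used in counting was not given in the sources used here, so a transfer of reads between such pairs was not tested.

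The checkpoint kinases and Mad2l1 differed less than Ube2c, Cdc20 and Espl1. Bub1b, the pseudokinase BUBR1, had 7298 and 8649 counts (-0.14). Mad2l1, which holds CDC20 inactive, had 3028 and 3503 (-0.10), and a pseudogene without a row in the table is 95.4% identical to 26.3% of its transcript. Bub1 had 3665 and 4154 (-0.073, interval -0.14 to -0.0087), and its interval spanned 0 when scaled by total counts (-0.042). Ttk, the kinase MPS1 at the top of the checkpoint, had 1671 and 1918 (-0.091), with an interval from -0.19 to 0.004 that just reached 0. All but Ttk among these 4 had intervals below 0.

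In the chromosomal passenger complex, 3 of 3 members had intervals below 0, against 34.4% of the 7687 genes of like abundance. The complex corrects faulty attachments and guides cytokinesis. Aurkb, its kinase, had 3480 and 4696 counts, which is 88.7 and 111 CPM (-0.32, interval -0.39 to -0.26). Birc5, which encodes survivin, had 4741 and 5983 (-0.23). Incenp, the scaffold, had 5072 and 5802 (-0.086, interval -0.14 to -0.032). The intervals of Aurkb and Incenp did not overlap. How often the intervals of other pairs of abundant genes fail to overlap was not counted, so this is not a result about the complex.

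Centromere and kinetochore genes spread most once Pbk was set aside. Cenpa, the histone H3 variant that marks centromeres, had 3865 and 5448 counts, which is 98.6 and 128.9 CPM and the lowest value after Pbk (-0.39, interval -0.45 to -0.33). Knstrn, a kinastrin that supports attachment, had 3890 and 5021 (-0.26). Cenpf had 7596 and 8860 (-0.11) and Nuf2, of the NDC80 complex, 1980 and 2278 (-0.095, interval -0.18 to -0.0072). Scaled by total counts, the interval of Nuf2 spanned 0 (-0.063). Cenpe, the kinetochore motor, was near equality with 11625 and 12410 counts (0.013, interval -0.023 to 0.050). Ndc80, which binds microtubules in the same complex as Nuf2, was the highest of the 40 with 3348 and 3112 counts, which is 85.4 and 73.7 CPM (0.21, interval 0.14 to 0.28). Ndc80 and Nuf2 thus stood on opposite sides of 0, with intervals that did not overlap, which was not set against other gene pairs. On chromosome 17, its well-counted neighbours, examined after its value was seen, did not share 1 direction. Wdr43, 89.4 kb away, had 7438 and 7078 counts (0.18, interval 0.13 to 0.23), Smchd1 was at -0.01 and Lpin2 at -0.038, and Emilin2, 215.9 kb away, had 1550 and 2509 (-0.59, interval -0.68 to -0.50).

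Spindle motors and microtubule proteins were closest to equality, with a median of -0.040 over 5 genes. Kif11, the motor that separates the spindle poles, had 5704 and 6320 counts (-0.040, interval -0.092 to 0.011). Kif2c, the depolymerase MCAK, had 5559 and 6012 (-0.0055, interval -0.058 to 0.047). Kif4, a chromosome-bound motor, was slightly higher, with 4864 and 5000 counts, which is 124 and 118 CPM (0.068, interval 0.011 to 0.12). After correction for GC content and transcript length its interval spanned 0 (0.040, interval -0.017 to 0.097). The microtubule-binding genes were lower. Nusap1 had 1612 and 1952 counts (-0.17) and Hmmr 4219 and 4905 (-0.11), and both intervals lay below 0.

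Among the central spindle and cytokinesis genes, 4 of 6 had intervals below 0, against 34.4% of the 7687 genes of like abundance. The median of the 6 was -0.082. Kif20a, the motor that carries the passenger complex to the midzone, had 7284 and 8711 counts (-0.15). Kif23 and Racgap1 form the centralspindlin complex together. Kif23 had 4873 and 5768 counts (-0.14, interval -0.19 to -0.080), whereas Racgap1 had 15579 and 16912 (-0.011, interval -0.042 to 0.021). These intervals did not overlap either, and again other pairs of abundant genes were not examined. Ect2, the exchange factor that activates RhoA there, had 8003 and 9248 counts (-0.10), and Prc1, which bundles the midzone microtubules, had 9840 and 11067 (-0.062, and -0.031 with an interval that spanned 0 when scaled by total counts). Anln, which encodes anillin of the contractile ring, had 18443 and 19665 counts (0.015, interval -0.014 to 0.044).

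The 2 genes of chromosome structure were the most abundant by count. Top2a, the topoisomerase that untangles sister chromatids, had 30691 and 35839 counts, which is 783 and 848 CPM (-0.12, interval -0.14 to -0.094). Mki67, the coat protein of mitotic chromosomes and a common marker of cycling cells, had 29317 and 33753 (-0.096, interval -0.12 to -0.073). Both lay near the median of the 40. Top2a made up 10.8% of all member counts in shCTR and 10.9% in shcircCsnk1g3, and Mki67 10.2% and 10.4%.

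Summed by role after TMM scaling, every group was lower in shcircCsnk1g3, by unequal amounts. The mitotic kinases were 19.8% lower as a sum, and 12% lower without Pbk. The checkpoint and anaphase genes were 14.4% lower and the passenger complex 13.1% lower. CDK1 with its regulators was 7.52% lower, chromosome structure 7.10% and the kinetochore group 6.26%. The cytokinesis genes were 3.36% lower and the spindle motors and microtubule proteins 2.2%.

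Per kilobase of transcript, which allows levels of different genes to be compared, Ube2c was highest in shCTR at 189 CPM per kilobase, followed by Top2a at 162 and Birc5 at 150. In shcircCsnk1g3, Top2a came first at 149.9 and Ube2c next at 146. The lowest was Cdc25c, with 12.3 in shCTR and 13.1 in shcircCsnk1g3. The order depends on the length used. Per kilobase of coding sequence in shCTR, Ube2c stayed first at 340.4, followed by Birc5 at 337 and Cenpa at 321, while Top2a was 7th and Cdk1 went from 20th to 4th. With 1 library per condition, an exchange of neighbouring ranks cannot be read as a difference in order.

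Shorter members tended to have lower values. Over the 40 genes, the log2 fold change had a Spearman correlation of 0.44 with coding length and 0.29 with transcript length, and of -0.31 with GC content. Over 39 genes without Pbk, the correlation with coding length was 0.42. Genes in a library share its depth and fragment lengths and are not independent, so these are descriptions only. The same direction was seen, more weakly, across abundant genes in general, at 0.12 over 7639 genes with a coding length. After subtracting the median of all tested genes in the same of 10 bins of GC content and of 10 bins of transcript length, the member median was -0.14, 30 of 40 intervals lay below 0 and Pbk was still the only one past 1.5-fold. Some values moved toward 0, as Ube2c from -0.37 to -0.30 and Birc5 from -0.23 to -0.16. Others moved away from it, as Mad2l1 from -0.10 to -0.18, Bub1 from -0.073 to -0.14, Ect2 from -0.10 to -0.17 and Hmmr from -0.11 to -0.18.

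**Figure D4:**
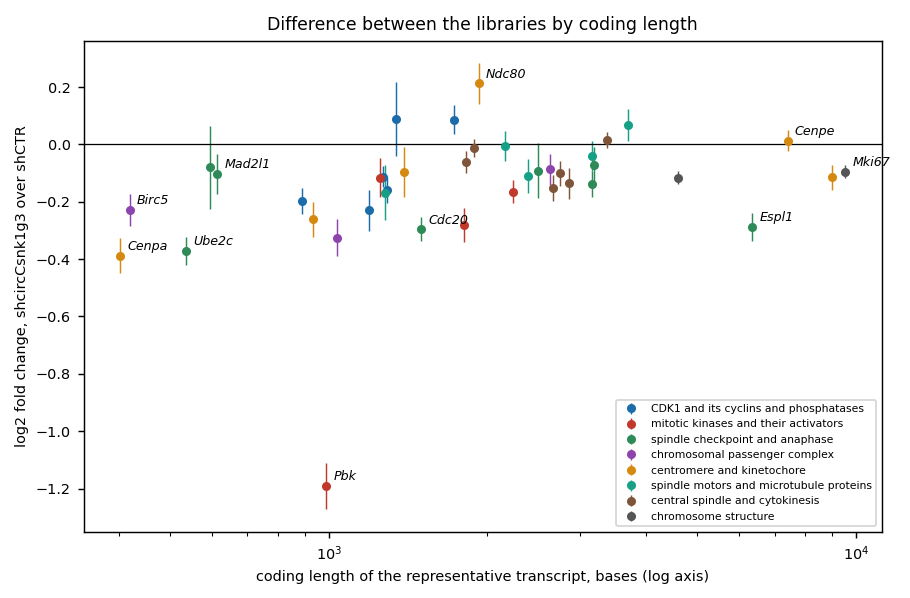
Log2 fold change with its 95% interval for counting error (vertical axis) against the coding length of each member in bases (horizontal axis, log scale), coloured by role. Short genes such as Cenpa and Ube2c lie lower than long ones such as Cenpe and Mki67. Espl1, which is long and low, is away from that pattern, as are the short Mad2l1 (615 bases, -0.10) and Pttg1 (597 bases, -0.079). Pbk (990 bases) lies far below all others.

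Members with and without each promoter element had similar values. The 25 genes with a CHR match had a median log2 fold change of -0.11 and the 8 without had -0.13. For CCAAT, the medians were -0.12 with and -0.095 without a match. Ndc80, the highest member, had a CHR match and no CCAAT match, and Cenpa, the lowest with a window, had both. Over all 9582 tested genes with a window, the 558 genes holding both elements had a median of -0.034, and those lacking 1 or both had 0.0037.

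A second list of 70 G2 and mitosis genes had a median nearer 0, at -0.043. Of the 69 tested, 43 were below 0, 27 had an interval below 0 and 11 above. The 43 are 62.3% of the list, against 49.6% of all genes tested and 51.5% of the 7687 genes with at least 1563 counts. The 27 are 39.1%, against 28.2% and 34.4%, and the 11 are 15.9%, against 26.9% and 31.3%. Some genes of the list, such as Psrc1 with 79 and 87 counts, were less abundant than those 7687. At its low end stood Gtse1, which restrains p53 in G2, with 1308 and 2550 counts (-0.85, interval -0.95 to -0.76). Depdc1a had 1262 and 2135 counts (-0.65), and Cep55, an abscission protein, 2553 and 3440 (-0.32). At the high end were Dsn1, of the MIS12 kinetochore complex, with 1798 and 1475 counts (0.39), Sgol1, shugoshin, with 3148 and 2916 (0.22), and Cenpn with 1200 and 1120 (0.21). Gtse1 and Depdc1a were the only genes of this list at least 1.5-fold lower, and none was 1.5-fold higher.

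Regulators of G2 and mitosis transcription were mixed, with a median of 0.017 over 15 genes. Foxm1, the late activator, had 9742 and 12409 counts (-0.24, interval -0.28 to -0.20). The DREAM subunits were not alike. E2f4 had 5940 and 7681 counts (-0.26) and Tfdp1 11002 and 12956 (-0.13), with intervals below 0, and Rbbp4 had 14718 and 15085 (0.072) with an interval above 0. E2f5 was at -0.020, Rbl1 at 0.075, Rbl2 at 0.012, Lin9 at 0.017, Lin37 at 0.083, Lin52 at 0.078 and Lin54 at 0.093, each with an interval that spanned 0. Mybl2, which encodes B-MYB, had 3079 and 3368 counts (-0.022, interval -0.093 to 0.049). Of the NF-Y subunits, Nfya was at -0.083 with an interval below 0, Nfyb at 0.13 with an interval above 0 and Nfyc at 0.066 with one that spanned 0.

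A list of inhibitors of cyclin-dependent kinases and of G2 checkpoint genes had a median of 0.15 over the 13 of 15 tested. In 8 (61.5%) the interval lay above 0, against 26.9% of all genes tested and 31.3% of the 7687 genes with at least 1563 counts. These 8 were G2 checkpoint genes but for Cdkn1a and Cdkn1b. The other tested CDK inhibitors, Cdkn1c, Cdkn2c and Cdkn2d, were below 0. Gadd45a, a stress protein that dissociates CDK1 from cyclin B, had 4401 and 2897 counts (0.71, interval 0.64 to 0.78), which is 1.64-fold. Cdkn1a, which encodes p21, had 2071 and 1515 counts (0.56, interval 0.46 to 0.66). Gadd45g had 752 and 588 (0.46) and Gadd45b 687 and 624 (0.25). Chek1 was at 0.20, Chek2 at 0.21, Pkmyt1, which phosphorylates CDK1, at 0.15, and Cdkn1b, which encodes p27, at 0.13. Wee1 was near equality at 0.024. Cdkn2c (-0.30) and Cdkn2d (-0.34), inhibitors of CDK4 and CDK6, had intervals below 0. Cdkn1c, with 59 and 69 counts, and Sfn, with 141 and 158, had intervals that spanned 0. Cdkn2a and Cdkn2b had 0 counts in both libraries.

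The DNA replication genes gave a cell cycle reference from S phase. All 50 were tested, 29 were above 0, and their median was 0.031. Their highest values were in Pola1 (0.25), Cdt1 (0.25) and Mcm7 (0.17), and their lowest in Dut (-0.26), Fen1 (-0.23) and Orc1 (-0.20). They summed to 243475 counts in shcircCsnk1g3 and 256313 in shCTR. For each replication gene count there were therefore 1.16 member counts in shcircCsnk1g3 and 1.29 in shCTR, a ratio 10.2% lower (log2 -0.16, interval -0.17 to -0.15 for counting error). Without Pbk the ratio was 9.62% lower.

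Of 15 housekeeping genes, 10 (66.7%) had an interval below 0 and 1 above. The share below 0 was 28.2% of all genes tested and 34.4% of the 7687 genes with at least 1563 counts. The median of this list was close to that of the members, at -0.093. After the GC and length correction it was -0.16, lower than the -0.14 of the members. Its lowest were Gusb (-0.37), Actb (-0.33) and Pgk1 (-0.25), and its highest Ywhaz (0.031), Polr2a (0.0078) and Sdha (-0.0080). Actb had 100735 and 136164 counts. A shift of the size seen in the members was therefore also present in genes outside the cell cycle, and its part in the members' values was not tested.

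**Figure D5:**
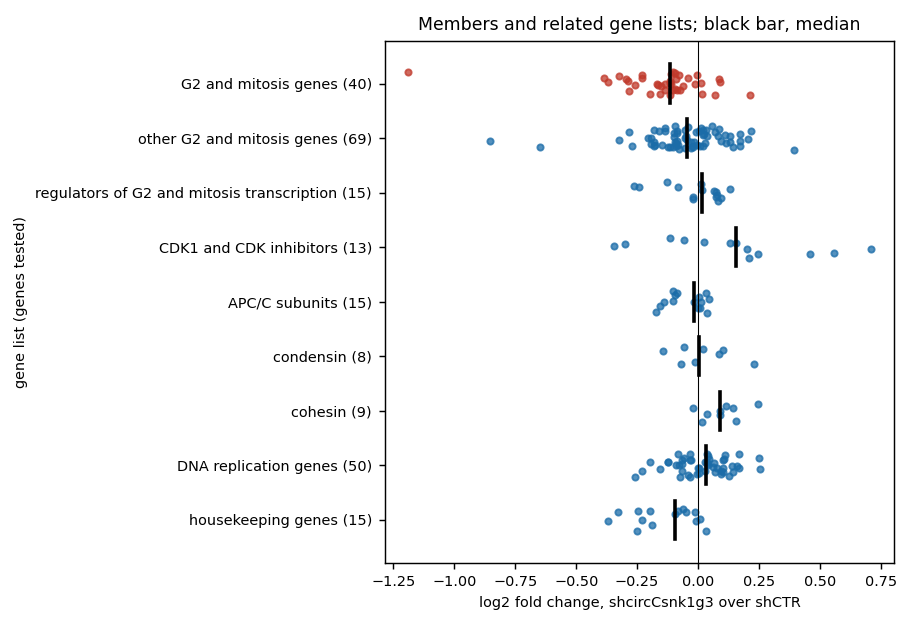
Log2 fold change (horizontal axis, shcircCsnk1g3 over shCTR) of each tested gene in the 40 G2 and mitosis genes (red) and 8 related lists (blue), 1 row per list with the number tested (vertical axis) and the median as a black bar. The members and housekeeping genes have the lowest medians, at -0.11 and -0.093. The row of CDK1 and CDK inhibitors, which also holds G2 checkpoint genes, has the highest, at 0.15.

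The libraries held 38792143 and 42709996 counts for shcircCsnk1g3 and shCTR, and the 40 genes took 0.726% and 0.774% of them. The linear Csnk1g3 gene had 2159 and 2411 counts (-0.052), which does not check the silencing, since a poly(A) library does not measure the circular RNA. Trp53 had 3841 and 4334 counts, and gene counts do not show which part of a gene was deleted. Ccne1 had 893 and 963 counts, which is 22.8 CPM in either library, and with no library of parental cells its overexpression could not be checked. The mesenchymal label was met by 9 of 10 markers tested, with Vim at 225330 and 282350 counts and Thy1 at 0 and 1. Col3a1 (0.37), Col1a2 (0.23) and Twist1 (-0.018) were the highest of them and Pdgfra (-0.31), Fn1 (-0.30) and Vim (-0.22) the lowest. Among markers of other cells, 4 of 8 leukocyte, 1 of 6 endothelial, 5 of 7 lung epithelial and 2 of 3 erythroid genes were at 0 in both libraries. Their sums in shcircCsnk1g3 and shCTR were 90 and 163 counts (leukocyte), 19 and 32 (endothelial), 13 and 13 (lung epithelial) and 423 and 604 (erythroid). Gm42418, a locus known to collect ribosomal RNA reads, had 60389 and 24337 counts (1.42). Yam1 had 99090 and 29819 (1.84) and Lars2 20448 and 6360 (1.79), and the part of these 3 rows in the members' values was not tested.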

How the data were processed

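RNA of 1 shcircCsnk1g3 and 1 shCTR culture was sequenced with a stranded mRNA kit. The authors aligned reads with STAR, estimated expected counts per gene with RSEM, and deposited these counts and a table of TMM-scaled CPM made with edgeR. The deposited expected counts were whole numbers and were used as given, after leaving out 92 spike-in rows at 0. Each column was mapped to a sample by name.

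Genes with at least 10 counts in 1 library were kept. TMM factors came from edgeR 4.0.16 in R 4.3.3. The log2 fold change was that of scaled CPM with a prior count of 2, and intervals were 95% exact Clopper-Pearson intervals for counting error, with scipy. With 1 library per condition no test was run. On simulated counts of 12887 genes, 198 of 200 changed genes were recovered within 0.5, and 95.7% of intervals held the true ratio. The simulated counts held only the counting error that the intervals assume, so this checks the computation alone. It does not cover the spread between cultures. Coordinates and lengths came from GENCODE M21 (GRCm38), copies from blastn 2.17.0 (at least 95% identity over at least 100 bases and 25% of the transcript).

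Text names all 40 members and every regulator, CDK inhibitor and G2 checkpoint gene listed. Of other lists, it names the 3 highest and 3 lowest genes with at least 200 counts. The members and lists were chosen with earlier results of these data known. Alternatives were DESeq2 1.42.0 size factors, total counts, prior counts of 0.5 and 10, the deposited table, other count filters, a GC and length correction, a 1.2-fold threshold, and leaving out members with a near-identical copy.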

Additional observations from a re-analysis of the deposited data

How the results depend on the processing

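The member median stayed below 0 under every alternative run, from -0.14 after the GC and length correction to -0.082 with total counts. Total counts moved the summed ratio of the members from -0.12 to -0.091 and the number of intervals above 0 from 3 to 5 (Anln and Cenpe added) and below 0 from 29 to 26 (Bub1, Nuf2 and Prc1 lost), and moved the median of all tested genes to 0.033. Leaving out Ccnb1, Mad2l1 and Pbk, which have near-identical copies, gave a summed ratio of -0.11 and 0 members past 1.5-fold or 2-fold lower. Leaving out Pbk alone, an alternative chosen after seeing the data, gave -0.11 for the summed ratio and 0 members past 1.5-fold or 2-fold lower. The GC and length correction gave Kif4 an interval spanning 0, added Anln above 0 and Ttk below 0, and moved the housekeeping median from -0.093 to -0.16. At 1.2-fold, 7 members were lower instead of 1, against 16.4% of all genes tested. Set against the replication genes, the difference of medians was -0.14 where the ratio of counts gave -0.16. Of 360 values of single members under alternatives, 347 stayed inside their own interval, 13 left it and 0 changed the sign of a value whose interval excluded 0. The 13 came from the GC and length correction (10) and from total counts (3). The other count filters could not change a member's value, since the least abundant had 1563 counts over both libraries. Their part of the 347 was therefore fixed beforehand. Median values of the 8 related lists left the half-width of their intervals in 3 of 72 cases. No paired analysis was possible because each condition had a single library, which also leaves no replicate to omit. All values compare 1 culture with 1 culture, and differences between cultures were not measured.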

Other observations

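The anaphase-promoting complex and condensin had medians nearer to 0 than the members, and cohesin had one above 0. Of 15 genes of the anaphase-promoting complex and its activator Fzr1, 5 had an interval below 0 and 0 above, and the median was -0.017. The 5 are 33.3% of the list, near the 28.2% of all genes tested and the 34.4% of the 7687 genes with at least 1563 counts. The lowest were Cdc27 with 5022 counts in shcircCsnk1g3 and 6096 in shCTR (-0.17), Anapc2 (-0.16) and Anapc13 (-0.14), and the highest Anapc7 (0.043), Cdc16 (0.037) and Anapc4 (0.031). The values of all 15 were closer to 0 than those of Ube2c and Cdc20.

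Condensin, which compacts mitotic chromosomes, had a median of 0.0031 over 8 genes. Its pair of SMC subunits stood on opposite sides, Smc2 with 8430 and 10029 counts (-0.14, interval -0.18 to -0.10) and Smc4 with 17491 and 16057 (0.23, interval 0.20 to 0.26). Ncapd2 (-0.069) and Ncapd3 (-0.058) were the next lowest, and Ncapg2 (0.10) and Ncaph (0.085) the next highest. Cohesin, which holds sister chromatids together until separase cuts it, was above 0 in 8 of 9 genes, with a median of 0.091. In 6 (66.7%) the interval lay above 0, against 26.9% of all genes tested and 31.3% of the 7687 genes. Stag2 was highest with 6083 and 5519 counts (0.25), followed by Wapl (0.15) and Stag1 (0.14), and the lowest were Smc1a (-0.021), Rad21 (0.016) and Smc3 (0.038). After the GC and length correction the cohesin median was 0.040.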
